A study of Homo sapiens with 5 samples.

Results

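Stretches of DNA called as methylated in both wild-type cultures, but in no DNMT3A-mutated line, were examined in 5 peak lists from K562, an established human chronic myeloid leukaemia line. They were found by joining all peaks that overlapped by 1 bp or more and keeping the joined regions that held a peak of both wild-type libraries and none of MT1, MT2 and MT4. The regions were thus chosen by presence and absence of peaks in these same lists. This gave 308 of 11260 regions (2.74%), and they are called wild-type-pair regions here. The libraries came from MeDIP-seq (methylated DNA immunoprecipitation sequencing). In this assay fragments are enriched with an antibody that binds 5-methylcytosine and are then sequenced. The wild-type group held a bulk culture (WT bulk) and a transfected culture (WT transfected), and the mutated group held the CRISPR/Cas9-edited lines MT1, MT2 and MT4. All 5 were grown in the same medium, and the protocol speaks of wild-type and mutated clones without giving the edited sequence of any. A bulk and a transfected culture are different kinds of control, so clonal history and genotype cannot be told apart.

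DNMT3A is a de novo DNA methyltransferase, which places methyl groups on cytosines that carried none before. Its loss is commonly studied through sites that lose methylation, and recurrent DNMT3A mutations are known from acute myeloid leukaemia. A peak in MeDIP-seq marks a stretch where methylated cytosines are dense enough for the antibody to enrich it, so dense CpG sequence gives a stronger signal than sparse sequence at the same methylation level.

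MT4 had the longest list (8399 peaks), followed by WT bulk (6213), WT transfected (4470), MT1 (2842) and MT2 (1426). Read totals were not used, so the depth behind a peak is unknown. The lowest score kept was 90 in every list, to the nearest whole number. A missing peak is a site below that limit in that library, and it is not shown to be unmethylated. The 308 regions took up 4.96% of the WT bulk peaks and 6.89% of the WT transfected peaks, since each held exactly 1 peak of each library.

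Most regions that the wild-type cultures shared were also found in mutated lines. Both wild-type libraries held 3262 regions in common. Of these, 308 had no peak in any mutated line (9.44%, 95% Wilson interval 8.49 to 10.5%). A further 1008 (30.9%) were held by 1 mutated line, 1111 (34.1%) by 2 and 835 (25.6%) by all 3. Of the regions held by 1 line, 897 were held by MT4, 99 by MT1 and 12 by MT2. These numbers follow the lengths of the mutated lists, in which MT4 is the longest and MT2 the shortest. Intervals here cover counting error only, and neighbouring regions are not independent. Because the peaks themselves chose the regions, the values below are descriptions without a test.

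The rule has a sharp edge at 1 bp, and few regions lay near it (positions are hg19 coordinates). The member closest to a mutated-line peak, on chromosome 1 from 117074366 to 117076107, lay 22 bp from an MT1 peak. The next were on chromosome 22 from 21712578 to 21713304, at 370 bp from an MT4 peak, and on chromosome 17 from 36283959 to 36289349, at 857 bp from an MT1 peak. On the other side of the edge, the region with the smallest overlap lay on chromosome 4 from 170191503 to 170193231, where an MT4 peak covered at most 118 bp of a wild-type peak. It was followed by regions on chromosome 19 from 37785133 to 37785622 (325 bp, MT4) and on chromosome 8 from 43821994 to 43822786 (341 bp, MT1 and MT2). No region of both wild-type libraries was left out by an overlap under 100 bp (0 regions).

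The wild-type-pair regions lay on every chromosome from 1 to 22 and on X. None lay on Y, where the wild-type libraries shared no region. Chromosome 4 held the most, 30 of 308 (9.74%, 95% Wilson interval 6.91 to 13.6%), followed by chromosomes 1 and 2 with 27 each, chromosome 3 with 25 and chromosome 19 with 22. Chromosomes 14 and 18 held 2 each. Chromosome 4 was first although chromosome 1 held 458 of the regions common to both wild-type libraries and chromosome 4 only 161.

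**Figure D1:**
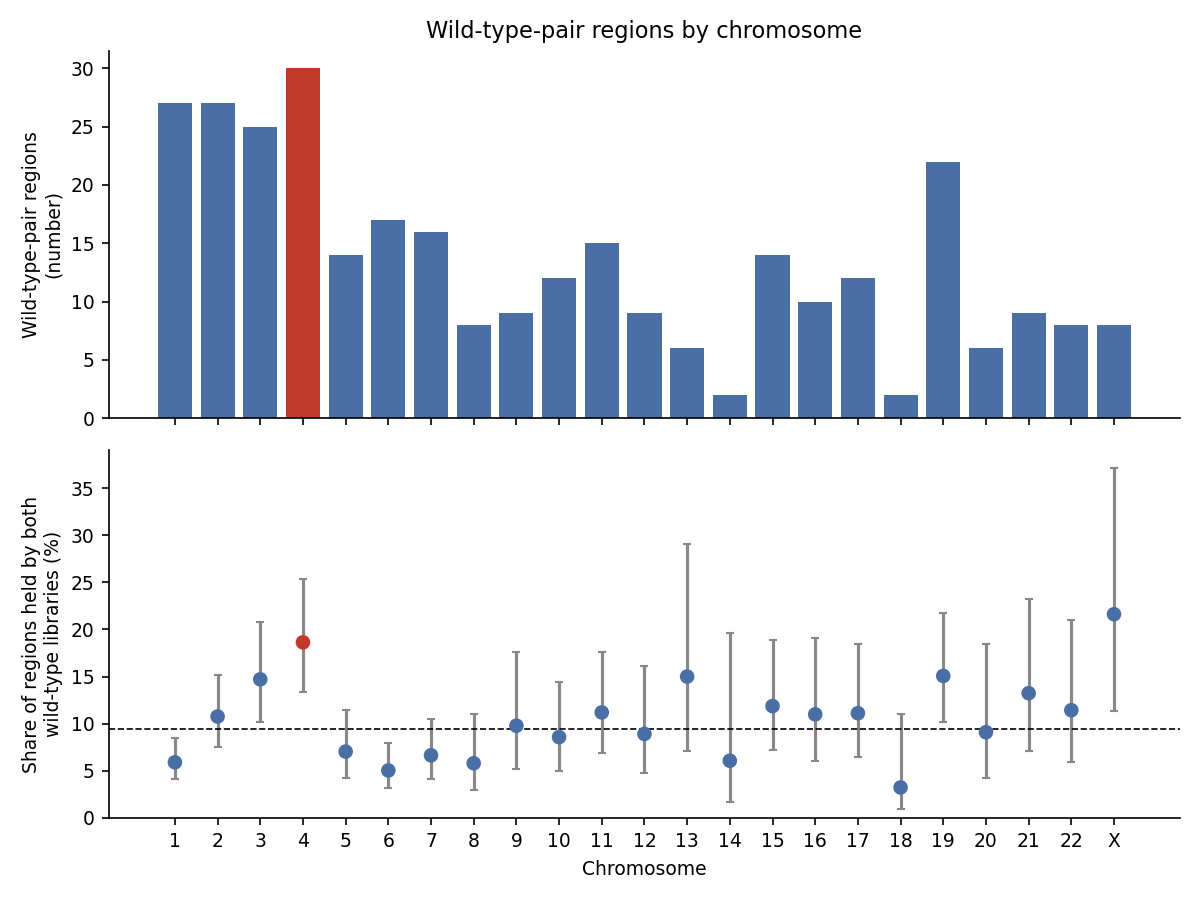
Wild-type-pair regions on each chromosome: the upper panel gives their number and the lower panel their share of all regions held by both wild-type libraries, with 95% Wilson intervals and a dashed line at 9.44%, the share over all chromosomes. Chromosome 4, in red, holds the most regions (30), and the intervals of chromosomes 3, 4, 19 and X lie wholly above the line.

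Relative to all regions that both wild-type libraries shared, the wild-type-pair regions were most frequent on chromosome X (8 of 37, 21.6%, interval 11.4 to 37.2%) and chromosome 4 (30 of 161, 18.6%, interval 13.4 to 25.4%). Chromosome 19 (22 of 146, 15.1%, 10.2 to 21.8%) and chromosome 3 (25 of 170, 14.7%, 10.2 to 20.8%) came next among chromosomes whose interval excluded the overall 9.44%. The intervals of these 4 chromosomes overlapped one another, so their order is not resolved. Chromosome 1 (27 of 458, 5.90%, 4.08 to 8.44%) and chromosome 6 (17 of 338, 5.03%, 3.16 to 7.91%) had intervals wholly below the overall share. Chromosome 18 had the lowest value, 3.23% (2 of 62), with an interval of 0.889 to 11.0% that included the overall share. Without chromosome 4 the share over the rest of the genome was 8.96% (278 of 3101, interval 8.01 to 10.0%).

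On chromosome 4 it was MT4 that lacked more of the wild-type regions than elsewhere. MT4 had no peak in 43.5% of the 161 chromosome 4 regions held by both wild-type libraries and in 12.2% of the 3101 on other chromosomes. The other mutated lines did not show this. MT1 lacked 38.5% on chromosome 4 and 43.3% elsewhere, and MT2 lacked 63.4% and 67.6%. Among regions that neither MT1 nor MT2 held, MT4 lacked 30 of 51 on chromosome 4 (58.8%, interval 45.2 to 71.2%) and 278 of 1154 elsewhere (24.1%, interval 21.7 to 26.6%). When MT4 was left out of the rule, the regions held by both wild-type libraries and by neither MT1 nor MT2 had a chromosome 4 share of 4.23% instead of 9.74%. MT4 also had 137 peaks on chromosome 4 where WT bulk had 292, although its whole list was 1.35 times as long. With MT1 or MT2 left out instead, the chromosome 4 share was 12.8% or 11.2%. The number of chromosome 4 regions that met the rule grew with MT1 left out as well as with MT4 left out, since 22 chromosome 4 regions had MT1 and 21 had MT4 as the single mutated line holding them. The low share without MT4 comes from the 897 regions over the genome that were held by MT4 as the single mutated line, against 99 for MT1.

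The chromosome 4 share differed between pairs of libraries with and without MT4, which is not separate from the low MT4 number above. Regions of a pair without MT4 lack an MT4 peak by rule. Pairs with MT4 draw on a list with 137 of 8399 peaks on chromosome 4. Regions held by exactly 2 of the 5 libraries were counted for all 10 pairs. In the 6 pairs without MT4, chromosome 4 held between 9.74% and 33.3% of the regions (58 of 504 in all, 11.5%). In the 4 pairs with MT4 it held at most 1.65% (22 of 1610 in all, 1.37%). The wild-type pair had the lowest of the 6 values. WT bulk with MT1 had 11.3% (12 of 106), WT transfected with MT1 had 16.7% (8 of 48), WT bulk with MT2 had 17.4% (4 of 23) and WT transfected with MT2 had 33.3% (3 of 9). MT1 with MT2 had 10% (1 of 10), with an interval of 1.79 to 40.4%. Over all 11260 regions the share was 3.43%, which lies inside that last interval and below those of the other 5 pairs without MT4. The intervals of all 6 pairs overlapped, so the wild-type pair is not distinguished from the others by its chromosome 4 share.

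**Figure D2:**
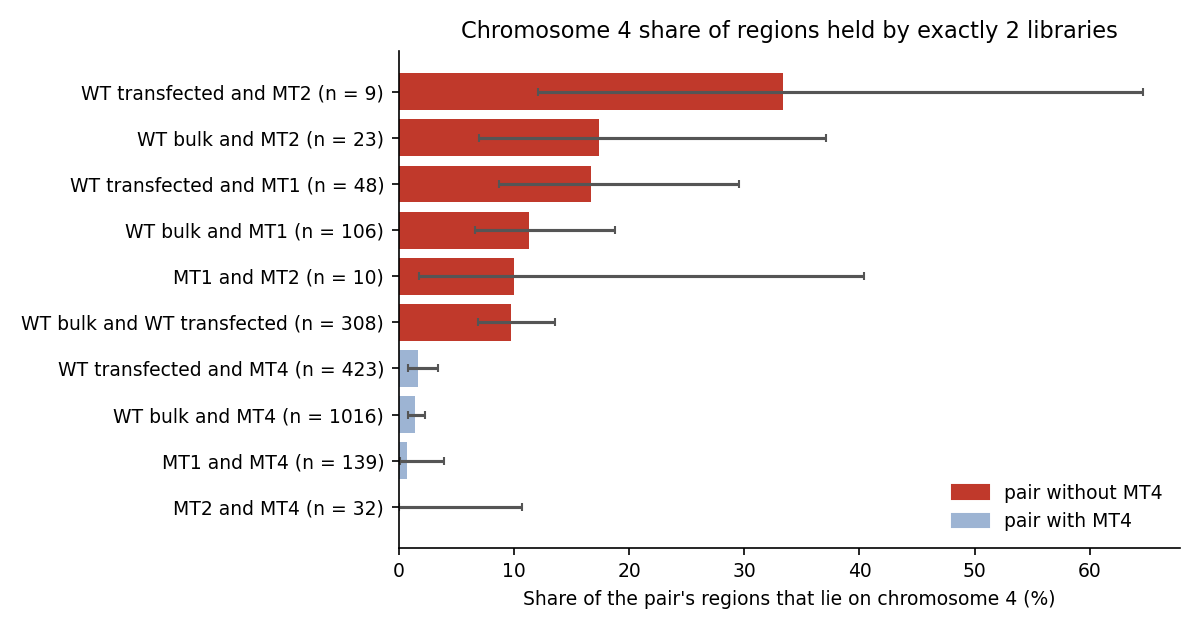
Share of regions on chromosome 4 for each of the 10 pairs of libraries, over regions held by exactly those 2 libraries, with 95% Wilson intervals and the number of regions in brackets. All 6 pairs without MT4 (red) lie at 9.74% or more, and all 4 pairs with MT4 (blue) at 1.65% or less.

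The 30 chromosome 4 regions lay along the chromosome from 1593621 to 174131557, at uneven distances. After those up to 8583792, the next began at 25239759. The median distance to the nearest other member was 1.47 Mb. Below 50 Mb there were 10 among 62 regions of both wild-type libraries (16.1%, interval 9.004 to 27.2%), and from 50 Mb on there were 20 among 99 (20.2%, interval 13.5 to 29.2%). MT4 lacked 38.7% of the wild-type regions in the first segment and 46.5% in the second. The highest-scoring chromosome 4 region, from 127691645 to 127692924, scored 256 in WT bulk and 249 in WT transfected. The region from 132671277 to 132672032 scored 201 and 151 in the same order. The next were at 124356274 to 124357408 (148 and 154), 141676993 to 141678132 (146 and 156) and 54275266 to 54276680 (158 and 134). The division at 50 Mb was a choice made with the positions in view.

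On chromosome 7, WT transfected had few peaks below 60 Mb. From 60 Mb on, WT bulk held 424 regions and WT transfected 275. Below 60 Mb they held 133 and 31 in the same order, and they shared 24. A single wild-type-pair region lay there, from 20707672 to 20708797, with scores of 193 in WT bulk and 99.8 in WT transfected. It made up 0.325% of the wild-type-pair regions, while this segment held 2.05% of all regions and 3.25% of those held by WT bulk and MT4 only. Among the 24 shared regions it made up 4.17% (interval 0.739 to 20.2%). That interval included the overall 9.44%, so a lower share in this segment is not resolved. On the rest of chromosome 7 there were 15 wild-type-pair regions among 217 held by both (6.91%, interval 4.23 to 11.1%). By the rule, only the 24 shared regions below 60 Mb could qualify, and a cause of the low WT transfected number there was not tested.

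The 8 regions on chromosome X differed widely in score. The strongest, from 74143740 to 74145075, scored 182 in WT bulk and 153 in WT transfected, and its nearest mutated-line peak was 1503 kb away. The weakest, from 124389274 to 124390203, scored 98.7 and 91.4. The mutated lines lacked 56.8% (MT1), 70.3% (MT2) and 27.0% (MT4) of the 37 regions that both wild-type cultures held on X, against 43.1%, 67.4% and 13.7% over the genome. On chromosomes 1 and 6, where the share of wild-type-pair regions lay below the overall share, MT4 lacked 7.64% and 7.40%. On chromosome 18, where the interval included the overall share, MT4 lacked 3.23%. A region can only qualify where MT4 lacks it, so the shares per chromosome move with MT4 by construction.

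Wild-type-pair regions lay partly in groups. Of the 308, 117 (38.0%) had another within 1 Mb, and the median distance to the nearest was 2.01 Mb. The closest neighbours were 24.6 kb apart and the most isolated region was 47.0 Mb from the next. Denser sets lie closer by construction: the 1016 regions of WT bulk with MT4 had a median distance of 0.53 Mb and the 423 of WT transfected with MT4 one of 1.48 Mb. A measure less dependent on number is whether the nearest of all regions held by exactly 2 libraries belongs to the same pair. For wild-type-pair regions this was so in 23.7%, where they made up 14.5% of the other such regions, a ratio of 1.63. Without chromosome 4 the values were 22.7% and 13.6%, a ratio of 1.66. The ratio was 1.03 for WT bulk with MT4, 1.16 for WT transfected with MT4 and 1.43 for MT1 with MT4. It was 0.57 for WT bulk with MT1. The other 5 pairs, with 9 to 48 regions each, ranged from 0 to 8.52, the highest being MT2 with MT4 (32 regions). These ratios have no error and no test, since regions are not replicates, and nothing particular to the wild-type pair is read from them.

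Joining members whose ends lay within 1 Mb of each other gave 10 clusters of at least 3 members, with 33 members in all. A further 84 members lay in 42 groups of 2, and 191 stood alone. None of the 10 clusters was on chromosome 4. They held 10.7% of the wild-type-pair regions. The same joining gave 107 clusters with 45.3% of the regions for WT bulk with MT4 and 20 clusters with 16.1% for WT transfected with MT4, which have more regions, so such clusters are not a mark of the wild-type pair. On chromosome 19, the cluster from 17836030 to 19034085 held 4 members, and these were all 4 of the regions that both wild-type libraries had there. Its mutated-line peaks numbered 2 in MT1, 0 in MT2 and 4 in MT4, against 8 in WT bulk and 6 in WT transfected. On chromosome 21, the cluster from 46438844 to 46946560 held 4 members among 5 wild-type regions within 0.51 Mb, where WT bulk had 10 peaks, WT transfected 5, MT1 1, MT2 0 and MT4 4. On chromosome 1, the cluster from 196577373 to 198464417 held 4 members among 6, with 9 and 7 peaks in the wild-type libraries and 2, 0 and 5 in MT1, MT2 and MT4. In these 3 clusters the mutated lines thus had peaks between the members, apart from MT2.

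The other 7 clusters held 3 members each. They lay on chromosome 2 from 201354574 to 202003884, chromosome 3 from 194814455 to 196326621, chromosome 8 from 21943549 to 22929774, chromosome 11 from 65122963 to 66189307, chromosome 12 from 6299860 to 7905322, chromosome 15 from 51633555 to 52820988 and chromosome 22 from 21712578 to 22661893. On chromosomes 2, 8 and 12 the members were 3 of 4 regions held by both wild-type libraries. In 2 of these clusters MT4 had more peaks than WT bulk and the members were a minority. On chromosome 3, MT4 had 19 peaks, WT bulk 16, MT1 7 and MT2 6, and the members were 3 of 11 wild-type regions (27.3%). The cluster on chromosome 22 lies in a segment from 17 to 24 Mb that includes BCR, a partner in the fusion gene that K562 carries in many copies. MT4 had 36 peaks inside it and WT bulk 20, and its 3 members were 3 of 13 wild-type regions (23.1%). Each of its members lay within 8.21 kb of a mutated-line peak. Over the whole segment 6 of 56 wild-type regions were wild-type-pair regions (10.7%, interval 5.00 to 21.5%), close to the share over the genome. The clusters were found from the members' own positions, so their contents are descriptions.

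Mutated-line peaks were usually present in the neighbourhood of a wild-type-pair region. The median distance to the nearest peak of any mutated line was 81.0 kb (quartiles 27.2 to 183.5 kb), and 171 of 308 regions (55.5%) had one within 100 kb. Only 3 had one within 1 kb and 32 (10.4%, interval 7.46 to 14.3%) within 10 kb. MT4, the longest list, was the nearest line for 205 regions (66.6%), MT1 for 67 and MT2 for 36. The median distance was 91.4 kb to an MT4 peak, 192.6 kb to an MT1 peak and 542.1 kb to an MT2 peak.

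**Figure D3:**
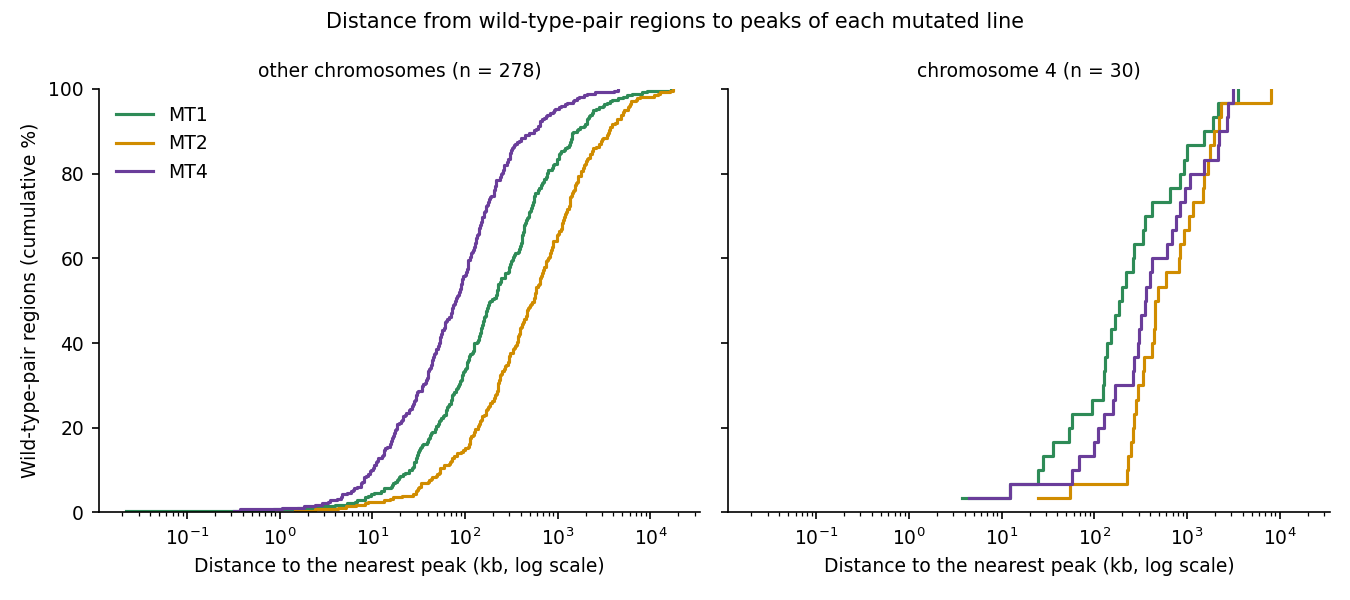
Distance from each wild-type-pair region to the nearest peak of MT1, MT2 and MT4, as cumulative shares on a log axis, for the 278 regions outside chromosome 4 (left) and the 30 on chromosome 4 (right). MT4 peaks are nearest outside chromosome 4 (median 79.1 kb), and MT1 peaks are nearest on chromosome 4 (median 193.5 kb, against 356.2 kb for MT4).

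On chromosome 4 this order changed. MT1 was the nearest line for 17 of the 30 regions, MT2 for 9 and MT4 for 4, and 1 of the 30 had a mutated-line peak within 10 kb. Outside chromosome 4, MT4 was nearest for 201 of 278 (72.3%) and 31 (11.2%) had a peak of any mutated line within 10 kb. For other pairs the distance runs to the libraries that did not hold their regions. Those lists have other numbers of peaks, so the shares are not like measures. Within 10 kb lay 6.89% of 1016 regions for WT bulk with MT4 and 11.1% of 423 for WT transfected with MT4. For WT bulk with MT1 the share was 15.1% of 106. Their intervals overlapped that of the wild-type pair (5.49 to 8.62%, 8.46 to 14.5% and 9.51 to 23.1%).

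Peaks around the regions were counted with each region's own peaks included. By the rule a member adds its own WT bulk peak and no mutated-line peak, while each other region also adds a mutated-line peak. The ratios to WT bulk below are thus lowered around members by construction, and neither likeness nor difference is read from them. Within 1 Mb on either side, outside chromosome 4, MT4 had 1.33 peaks for each WT bulk peak around wild-type-pair regions and 1.41 around the 2823 regions of both wild-type libraries that a mutated line also held. Over the lists without chromosome 4 the ratio was 1.40. The ratio for MT1 was 0.47 around wild-type-pair and 0.48 around the other regions, and that for MT2 was 0.22 and 0.24. The neighbourhoods themselves were sparser around members, with a mean of 8.14 WT bulk peaks against 9.17. Medians were 8 and 11 peaks for MT4, 3 and 4 for MT1 and 1 and 2 for MT2. In these the other regions' own mutated-line peaks are again counted. On chromosome 4, with own peaks counted in the same way, MT4 had 0.44 peaks for each WT bulk peak around the members. The ratio was 0.50 around the other regions of both wild-type libraries and 0.47 over the chromosome 4 lists. The number of members with no peak at all within 1 Mb was 20 for MT4, 50 for MT1 and 106 for MT2.

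Wild-type peaks were narrower in wild-type-pair regions than in regions that a mutated line also held. The median width of the wild-type-pair regions was 1240.5 bp (quartiles 925 to 1771 bp), and widths ran from 361 to 5391 bp. Over the whole lists the median peak width was 1255 bp in WT bulk and 1183 bp in WT transfected. Without chromosome 4 the median was 1231.5 bp, and on chromosome 4 it was 1320.0 bp. The WT bulk peak in them had a median width of 1128.5 bp and the WT transfected peak 1000.5 bp, against 1437 and 1283 bp at the 2954 wild-type regions that a mutated line also held. The WT bulk peak was the wider one in 217 of 308 regions (70.5%).

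**Figure D4:**
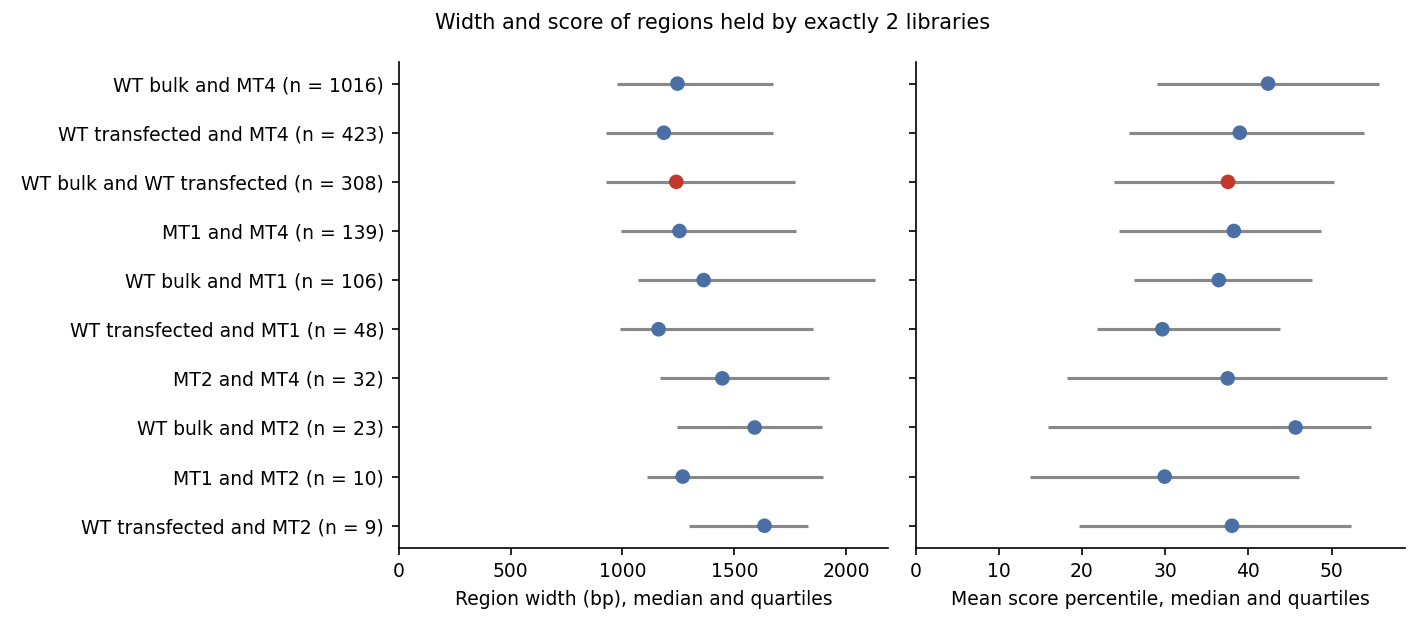
Width (left, in bp) and mean score percentile (right) of regions held by exactly 2 libraries, as medians (points) with quartiles (lines), ordered by the number of regions. The wild-type pair, in red, has a median width of 1240.5 bp and a median percentile of 37.6, inside the range of the other 9 pairs on both measures.

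Set beside other pairs, the wild-type pair was not unusual in width. Medians of the other 9 pairs ran from 1161.5 bp (WT transfected with MT1) to 1635 bp (WT transfected with MT2). WT bulk with MT4 had 1246 bp, with an order-statistic interval of 1213 to 1283 bp, inside the 1140 to 1307 bp of the wild-type pair. The other pairs with MT2 had medians of 1591 bp (with WT bulk), 1446.5 bp (with MT4) and 1269.5 bp (with MT1).

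Narrow regions were also low in score. Of the 816 narrowest regions of both wild-type libraries, up to 1157 bp wide and with a median percentile of 48.8, 140 were wild-type-pair regions (17.2%, interval 14.7 to 19.9%). In the other 3 width quartiles the share was 7.83%, 6.39% and 6.38%, with median percentiles of 60.2, 67.6 and 71.2. Width was therefore also compared within bands of score. Among regions with a mean percentile of 60 to 80 in the wild-type lists, the WT bulk peak had a median of 1054 bp in 38 members (interval 946 to 1293 bp) and 1428.5 bp in 820 regions held by a mutated line (1390 to 1473 bp). Between percentiles 40 and 60 the medians were 1258.5 bp (1065 to 1495 bp) and 1300.5 bp (1256 to 1355 bp), with intervals that overlapped. The intervals also overlapped from 20 to 40 (1178 and 1270 bp) and up to 20 (896 and 1159.5 bp), where the members again had the smaller median.

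The widest members were found on chromosome 17 from 36283959 to 36289349 (5391 bp), chromosome 21 from 46719826 to 46724978 (5153 bp), chromosome 1 from 1304786 to 1309875 (5090 bp), chromosome 19 from 1253535 to 1258153 (4619 bp) and chromosome 1 from 227917493 to 227921979 (4487 bp). Their scores were low to middling. The region on chromosome 19 scored 90.3 in WT bulk, just above the limit, and 146.9 in WT transfected. The first of the pair on chromosome 1 scored 96.1 and 93.7. The narrowest were on chromosome 3 from 197382561 to 197382921 (361 bp), chromosome 22 from 20457932 to 20458364 (433 bp) and chromosome 1 from 222661238 to 222661800 (563 bp).

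The peaks of both wild-type libraries matched closely in position. The peaks overlapped by a median of 923 bp, and by at least 70.0% of the shorter peak in every region. In 155 of the 308 regions one peak lay wholly inside the other, with the WT transfected peak inside the WT bulk peak in 115. Their centres were a median of 73.8 bp apart, and at most 849 bp. No member rested on a contact of peak edges alone.

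In score, the wild-type-pair regions stood in the lower part of both lists. The authors' score of the WT bulk peak ran from 90.3 to 255.6 with a median of 115, and that of the WT transfected peak from 90.1 to 249 with a median of 106. As percentiles within each list the medians were 38.8 and 31.5. Both peaks lay at or below the median of their list in 149 regions (48.4%) and both above it in 37 (12.0%). A score under 95 in at least one of the lists, close to the limit of 90, was seen in 88 members (28.6%) and in 253 of the 2954 other wild-type regions (8.56%). The scores of the wild-type libraries went together only loosely. Pearson's r of the percentiles was 0.17 over the 308 members and 0.52 over the 2954 others, regions that share the same libraries, and members cover a narrower range of scores.

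**Figure D5:**
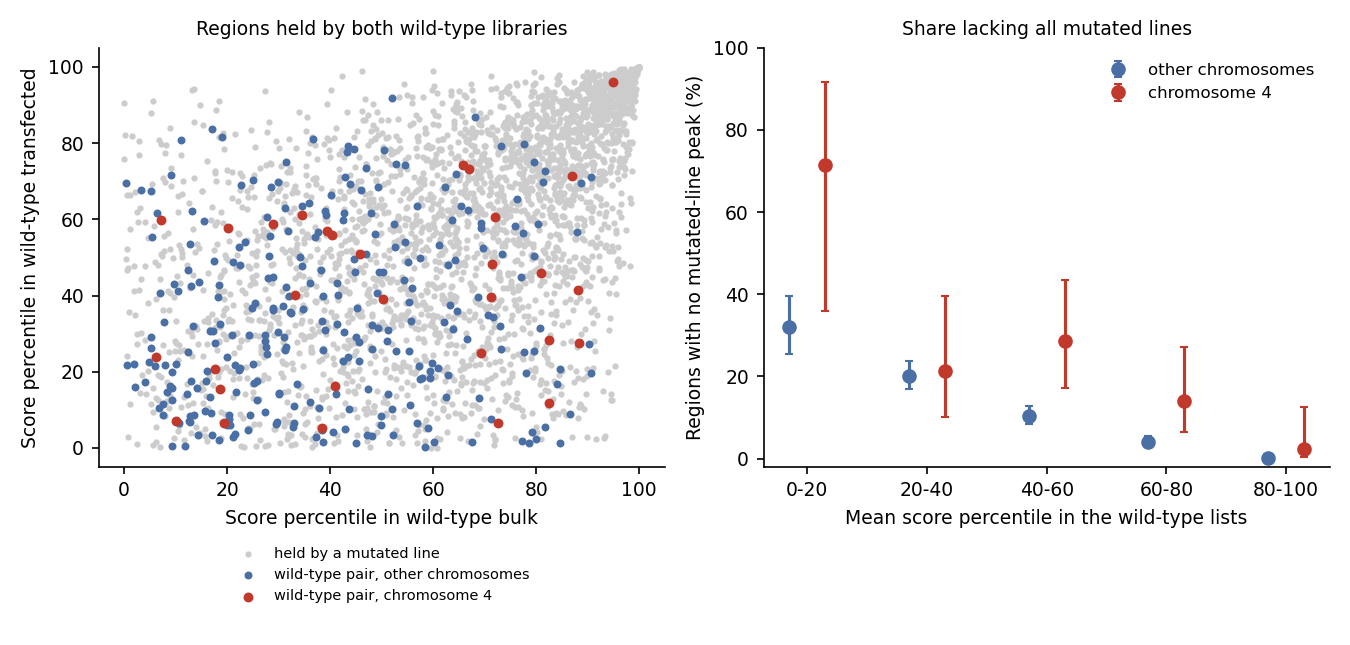
Left, score percentile in WT bulk (x axis) and WT transfected (y axis) of the 3262 regions held by both, with wild-type-pair regions in blue and those on chromosome 4 in red. Right, share of these regions with no mutated-line peak, by mean percentile, with 95% Wilson intervals: outside chromosome 4 it falls from 32.1% in the lowest band to 0.129% in the highest.

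The share of wild-type regions that no mutated line held was lower in each higher band of score. It was 33.7% of 169 regions with a mean percentile up to 20, 20.2% of 570 from 20 to 40, 11.3% of 846 from 40 to 60, 4.43% of 858 from 60 to 80 and 0.244% of 819 above 80. The last band held 2 members. Outside chromosome 4 the shares were 32.1%, 20.1%, 10.4%, 3.93% and 0.129%. On chromosome 4 the share up to percentile 20 was 71.4% (5 of 7, interval 35.9 to 91.8%), and from 20 to 40 it was 21.4% (6 of 28), close to the 20.1% elsewhere. It was 28.6% (12 of 42, interval 17.2 to 43.6%) from 40 to 60, against 10.4% (8.52 to 12.8%), and 13.95% (6 of 43, interval 6.56 to 27.3%) from 60 to 80, against 3.93% (2.79 to 5.49%). The median percentile of the members was 47.5 on chromosome 4 and 36.8 elsewhere. The score was higher the more mutated lines held a region. The median wild-type percentile was 37.6 with none, 45.6 with 1, 64.3 with 2 and 86.0 with all 3.

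Against other pairs the wild-type pair was again in the middle. Its median mean percentile was 37.6 (order-statistic interval 35.0 to 39.9), and the other 9 pairs ranged from 29.7 (WT transfected with MT1) to 45.7 (WT bulk with MT2). WT bulk with MT4 stood at 42.4 (40.9 to 44.2), above the wild-type pair beyond both intervals, and WT transfected with MT4 at 39.0 (35.9 to 42.3), within them. In the WT bulk list alone the order was the opposite, with medians of 36.9 for WT bulk with MT4 and 38.8 for the wild-type pair, and in the MT4 list the median of the former was 48.6. Mean percentiles over 75 were reached by 10 of the 308 wild-type-pair regions (3.25%), 52 of the 1016 of WT bulk with MT4 (5.12%) and 11 of the 423 of WT transfected with MT4 (2.60%). Percentiles from lists of different length rank peaks only within each list.

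Strong wild-type regions without a peak in any mutated line were therefore few in the full lists. Of 1048 regions of both wild-type libraries with a mean percentile over 75, 10 were wild-type-pair regions (0.954%, interval 0.519 to 1.75%). Of these 10, 2 were the chromosome 4 regions above and 8 lay elsewhere. On chromosome 15, from 44486563 to 44488018, the scores were 222 in WT bulk and 150.2 in WT transfected, with the nearest mutated-line peak 251.9 kb away. On chromosome 10, from 63422369 to 63423240, they were 209 and 147.3, at 203.3 kb. The region on chromosome 7 from 64717674 to 64718798 was even in both libraries (170.0 and 168.1), and an MT4 peak lay 4.66 kb from it.

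On chromosome 2, the region from 24397336 to 24398664 scored higher in WT transfected (191.2) than in WT bulk (150.6), and so did the one from 161263454 to 161264839 (166.9 and 160.2). The latter was 608.7 kb from any mutated-line peak. On chromosome 1, the region from 46931335 to 46933487 was the widest of the 10 (2153 bp), scored 175.6 and 157.7 and had an MT1 peak at 16.3 kb. On chromosome 17, the region from 30437535 to 30438581 scored 181 and 147.4. The tenth, on chromosome X from 74143740, is described above. At the other end, the weakest members scored close to the limit in both libraries, as on chromosome 11 from 95746653 to 95747417 (94.4 and 90.2) and on chromosome 15 from 45107903 to 45108741 (95.7 and 90.1). The next were on chromosome 8 from 99712031 to 99712884 (93.6 and 93.8), chromosome 3 from 165641942 to 165642507 (93.2 and 94.6) and chromosome 4 from 174130669 to 174131557 (94.7 and 93.1).

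Membership depended on where the score limit lay. With all lists limited to scores of 121.64 or more, the median of all peaks, 179 regions met the rule, and 41 of them were among the 308. With each list cut to its 1426 best peaks, 69 regions met it, and 8 of them were among the 308. The other 138 and 61 regions overlapped regions that held a mutated-line peak in the full lists. All 10 of the strongest members above met the rule at the first limit and 8 at the second. This follows from their scores alone. A higher limit adds no mutated-line peak, so a member stays whenever both of its wild-type peaks pass.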

How the data were processed

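MeDIP-seq peak lists of 5 K562 libraries were used, 2 wild type and 3 DNMT3A-mutated, grouped by the labels. Per the submitters' processing notes, the build was hg19 and the tools included Bowtie 1.1.1 and edgeR, with no role given. Peak names start with MACS, per the file contents. Peaks had been called for each library alone. Not given in the sources used here are the caller's version, its threshold and any input control. Each line of the deposited files gives a start and end in base pairs and the authors' score, whose lowest value was 90. Scores served to order peaks inside their own list and to limit the lists. The limit of 121.64 was the median over the peaks of all 5 lists together. Scores of the wild-type libraries are also given side by side, although a common scale between libraries was not shown. Coordinates are hg19, counted from 1.

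Peaks overlapping by 1 bp or more were joined into regions (scipy 1.17.1, numpy 2.4.6 and pandas 2.3.3 under Python 3.11.15), after a check of joining and distances on simulated lists. Where a library had several peaks in a region, its best score was used. Distances to peaks run from end to end, and those between regions from centre to centre. Intervals of shares are 95% Wilson intervals; those of medians come from binomial order statistics. No p-value was computed, as the same peaks chose the regions. The replicate is the library, and the sources used here do not say how many editing events gave the mutated lines. Alternatives were a higher score limit, equal list length, an overlap of 50% of the shorter peak, a gap of 500 bp, chromosomes 1 to 22 and X only, no chromosome 4, and each library left out.

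The regions named were the 10 highest, 5 lowest, 5 widest and 3 narrowest members, clusters of at least 3, the 5 highest on chromosome 4 and 3 on each side of the overlap rule; single regions on chromosomes 7 and X were named after their values were seen. Members and lists were chosen with earlier results of these data known. Genes and sequences were not used here, as no table of the same build was at hand.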

Additional observations from a re-analysis of the deposited data

How the results depend on the processing

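Joining by an overlap of 50% of the shorter peak, allowing a gap of 500 bp and using chromosomes 1 to 22 and X gave 310, 308 and 308 wild-type-pair regions, and under these settings or without chromosome 4 the number stayed within 1.5 times and the shares and medians within their intervals. No region held by both wild-type libraries lay on Y, so leaving Y out could not change the number or the share. At a score limit of 121.64 the number fell to 179 and at equal list length to 69. In the same order, the share of regions held by both wild-type libraries became 10.7% and 7.71%, the median width 1416 and 1441 bp, the median percentile 34.7 and 30.7 and the share within 10 kb of a mutated-line peak 3.91% and 7.25%. Percentiles were ranked again within the shortened lists. With each library left out in turn, the number ranged from 322 without MT2 to 1665 without WT transfected; it was 892 without WT bulk and 1205 without MT4. Fewer libraries to satisfy raise it by construction. The share of wild-type regions ranged from 9.86% to 36.9%, the median width from 986.5 to 1301 bp, the median percentile from 24.1 to 43.6 and the share within 10 kb from 5.98% to 12.3%. The chromosome 4 share, tried after the data were seen, ranged from 4.23% without MT4 to 12.8% without MT1, and was 8.94% at the score limit and 10.1% at equal length. No paired analysis was possible because no label ties a wild-type culture to any mutated line. Every absence is limited by the lowest score kept, as read totals were not used.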
